A study of Mus musculus with 2 samples.

Results

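Kallikrein-related proteases of the skin, their activators and their inhibitor were examined at the RNA level in cultured mouse keratinocytes, the main cells of the epidermis. The 10 genes were taken by symbol from a table of 47719 genes, and all 10 were found. They are the kallikreins Klk5, Klk6, Klk7, Klk8, Klk10, Klk11 and Klk13, the membrane proteases St14 and Prss8, and the inhibitor gene Spink5. Each genotype, Pp6fl/fl and K5.Pp6fl/fl, had 1 library, and both came from C57BL/6J mice aged 8 weeks, from tail keratinocytes kept 3 days in Medium 154CF. Both groups carry the floxed Pp6 allele, whose gene is called Ppp6c in the annotation and encodes the catalytic subunit of protein phosphatase 6. The sample titles call the K5.Pp6fl/fl cells cKO, for conditional knockout. The K5 prefix stands for the keratin 5 promoter, which drives the recombinase in basal keratinocytes of such mice. The sources used here do not say how many mice stood behind each culture, and with 1 library per genotype no difference has a replicate check or a p-value.

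Kallikreins are secreted trypsin-like and chymotrypsin-like serine proteases, made as inactive precursors that another protease must cut. In the outer epidermis KLK5 and KLK7 cut corneodesmosomes, the junctions that hold dead surface cells together, so that these cells are shed. Matriptase, the product of St14, and prostasin, the product of Prss8, are membrane-bound serine proteases upstream in this cascade, and KLK5 can activate itself and KLK7. LEKTI, the product of Spink5, is the multi-domain inhibitor that restrains these kallikreins, and its loss in Netherton syndrome leads to excessive shedding.

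Reads in genes numbered 19374768 in the Pp6fl/fl library against 17361262 in the other, and levels are given as CPM, read counts scaled to a common depth with TMM factors. The targeted gene Ppp6c was at 55.5 CPM in Pp6fl/fl and 40.7 CPM in K5.Pp6fl/fl, a fold of 0.733 (95% counting interval 0.666 to 0.807), so its RNA was lower but still present in the library labelled K5.Pp6fl/fl. By the deposited FPKM it was at 30.6 and 16.8, a fold of 0.548. Keratinocyte markers summed to 63081 and 60150 CPM, most of it from Krt14 and Krt5. Within that list Trp63, encoding the basal factor p63, was at 0.776 (0.759 to 0.793), the spinous keratin gene Krt10 at 0.77 (0.659 to 0.899), and Krt1 at 0.944 (0.785 to 1.14). Immune markers were at 0 reads in both libraries for 5 of 6 genes, and muscle markers for 3 of 4. All 5 melanocyte markers were detected, with summed levels of 7.34 and 15.0 CPM. Dct, Tyrp1 and Pmel had intervals above 1, and those of Tyr (1.8-fold, 0.859 to 3.91) and Mlana (1.27-fold, 0.403 to 4.12) included 1. That sum was below the level of Klk10, Klk8, Klk7, Klk6 or Spink5 in either library. Its part in the results was not tested. In such bulk samples, more cells of a differentiation stage and more RNA per cell cannot be told apart.

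The inhibitor gene Spink5 and 4 of the 7 kallikreins had higher levels in K5.Pp6fl/fl, by 1.49-fold to 1.84-fold, while Klk5, Klk11 and Klk13 were not distinguishable between the libraries. The activating protease gene St14 was 1.12-fold higher, and Prss8 had nearly the same fold with an interval that included 1. A gene is called expressed at 1 CPM or more in at least 1 library, which held for 9 of the 10 genes and failed for Klk13. None of the 9 was at least 2-fold apart, where 0.811% of all 12325 expressed genes were higher and 0.195% lower by that rule. A fold of 1.5 or more with an interval above 1 was seen for 4 of the 9 (Spink5, Klk6, Klk7 and Klk8), against 3.47% of expressed genes, and none was lower by that rule, against 1.26%. An interval above 1, at any fold, was seen for 6 of the 9 (the same 4, Klk10 and St14), against 16.6% of expressed genes. No interval lay below 1, against 17.4% of expressed genes. Whether an interval excludes 1 depends on read depth as well as fold, and these shares were not matched for depth. The median log2 ratio was 0.60 over the 6 expressed kallikreins and -0.01 over all expressed genes. Log2 ratios are taken after adding 0.5 CPM to both values.

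**Figure D1:**
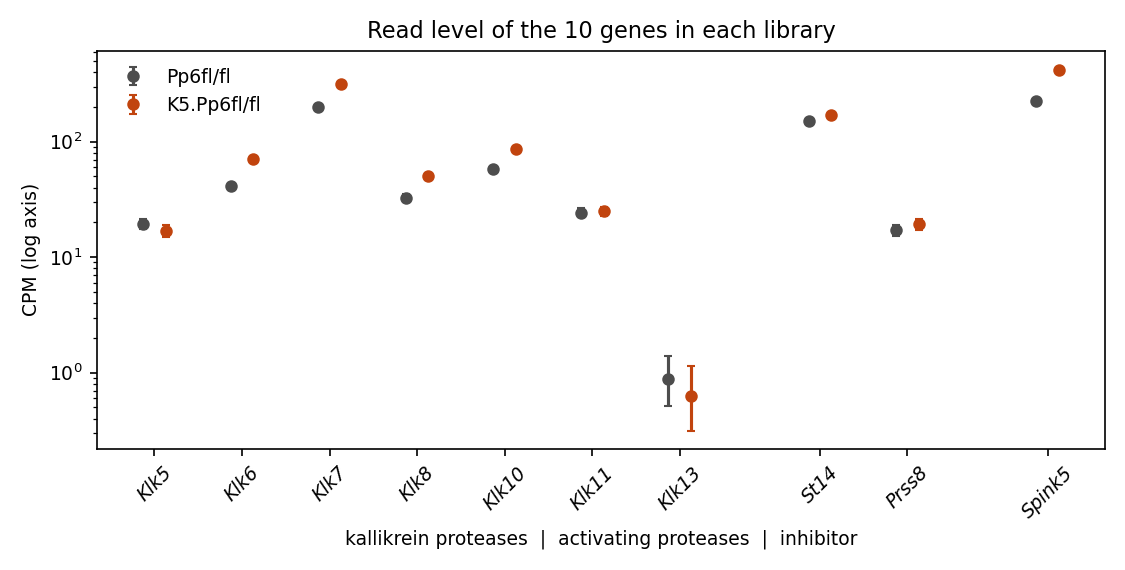
CPM on a log axis for each of the 10 genes in the Pp6fl/fl library (grey) and the K5.Pp6fl/fl library (orange), with exact Poisson 95% intervals for counting error. Spink5 was at 226 and 417 CPM and Klk7 at 201 and 318 CPM, while Klk13 was below 1 CPM in both.

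Among the kallikreins, Klk7 (ENSMUSG00000030713), the chymotrypsin-like enzyme that cuts corneodesmosin, had the most reads. It had 3888 reads in Pp6fl/fl and 5522 in K5.Pp6fl/fl, or 201 CPM (interval 195 to 207) and 318 CPM (309 to 326). The intervals of the 2 libraries did not overlap, and the fold was 1.58 (1.52 to 1.65). Only 2.77% of expressed genes had a higher log2 ratio.

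Klk6 (ENSMUSG00000050063), a trypsin-like kallikrein also known from brain, had the largest fold of the kallikreins by read counts. It went from 793 reads to 1226, or from 41.0 CPM (38.2 to 43.9) to 70.5 CPM (66.6 to 74.6), a fold of 1.72 (1.57 to 1.88). Klk8 (ENSMUSG00000064023), which encodes neuropsin, a protease of skin and hippocampus, was at 32.4 CPM (29.9 to 35.0) from 627 reads and at 50.1 CPM (46.8 to 53.6) from 871 reads. Both genes were thus higher in the K5.Pp6fl/fl library with no overlap of the counting intervals, and the fold of Klk8 was 1.55 (1.39 to 1.72). Of the exon bases of Klk8, 24.8% lie opposite the antisense gene 2310002F09Rik, and the library kit does not mark strand. No stretch of 31 bases of Klk5, Klk6, Klk7, Klk10, Klk13 or Spink5 transcripts occurs in transcripts of another gene. That antisense gene had 21 and 18 reads, and the sum of both genes had a fold of 1.53 (1.38 to 1.69). Klk10 (ENSMUSG00000030693), a kallikrein whose substrates are less well known, had 1130 and 1515 reads, or 58.4 CPM (55.0 to 61.9) and 87.2 CPM (82.8 to 91.7). Its fold of 1.49 (1.38 to 1.61) was just short of the 1.5-fold rule.

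The other kallikreins had intervals that included 1. Klk5 (ENSMUSG00000074155), the trypsin-like enzyme placed at the head of the kallikrein cascade, had 375 reads in Pp6fl/fl and 293 in K5.Pp6fl/fl, or 19.4 CPM (17.5 to 21.4) and 16.9 CPM (15.0 to 18.9). The intervals overlapped, and the fold of 0.87 had an interval of 0.744 to 1.02. Klk11 (ENSMUSG00000067616), another trypsin-like kallikrein, was at 24.3 and 24.9 CPM from 470 and 433 reads, a fold of 1.03 (0.898 to 1.17). Klk13 (ENSMUSG00000054046) rested on 17 and 11 reads, or 0.878 and 0.633 CPM, and a fold of 0.72 with an interval of 0.305 to 1.63 left no direction detectable at this depth. Summed, Klk6, Klk7, Klk8 and Klk10 went from 333 to 525 CPM, and Klk5, Klk11 and Klk13 from 44.5 to 42.4 CPM. These sums were formed after the values were seen.

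**Figure D2:**
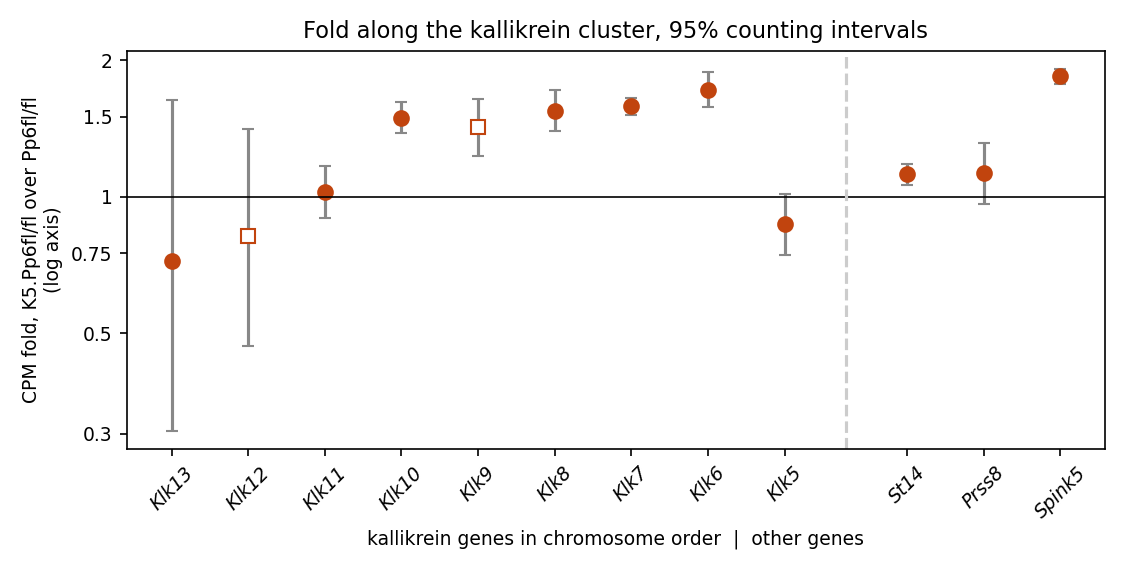
CPM in K5.Pp6fl/fl divided by CPM in Pp6fl/fl, on a log axis, for the kallikrein genes with at least 20 reads in all, in chromosome order, then for St14, Prss8 and Spink5. Bars are 95% counting intervals, filled circles are the 10 genes of interest and open squares are Klk12 and Klk9. The run from Klk10 to Klk6 lies above 1, and Klk11 and Klk5 on either side have intervals that include 1.

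The kallikrein genes lie side by side on mouse chromosome 7, and the genes with higher RNA were neighbours. In the RefSeq order of protein-coding genes (assembly GRCm38.p6, used for order only) the cluster runs Klk14, Klk13, Klk12, Klk11, Klk10, Klk9, Klk8, Klk7, Klk6, Klk5, Klk4 and Klk15. The uninterrupted run of 5 genes from Klk10 to Klk6 held every cluster gene with an interval above 1. Such an interval was found in 16.6% of all expressed genes. Of the cluster genes outside the run only Klk12, Klk11 and Klk5 were expressed, so the others could not be called. The run includes Klk9, a kallikrein outside the set of 10, with 333 and 425 reads, 17.2 and 24.5 CPM, and a fold of 1.42 (1.23 to 1.64). At the edges of the run the counting intervals of neighbours were apart: 1.38 to 1.61 for Klk10 against 0.898 to 1.17 for Klk11, and 1.57 to 1.88 for Klk6 against 0.744 to 1.02 for Klk5. Klk12 had 34 and 25 reads and a fold of 0.819 (0.468 to 1.41). Klk14, a further desquamation kallikrein, had 0 and 1 reads, and Klk4, known from tooth enamel, had 0 and 4. Klk1 and Klk15 had 0 reads in both libraries, as did all 23 Klk1b genes and pseudogenes, where a limit of 3 reads for a count of 0 comes to 0.155 CPM in Pp6fl/fl and 0.173 CPM in K5.Pp6fl/fl.

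Because neighbouring kallikreins had similar folds, the sequence just before their start sites is shown for Klk10, Klk8, Klk7 and Klk6 of the run and for Klk11 and Klk5, which flank it. RefSeq (GRCm38.p6) gave start sites for all 7 kallikreins of the set. St14, Prss8 and Spink5 were not matched there. The build named in the submitters' processing notes is mm8, so the coordinates belong to the printed windows and to no value in the table. Each window holds the 250 bases before the start, 5′ to 3′, and for Klk11 and Klk6, which have more than 1 start, the first is printed. Capitals mark a GC box (GGGCGG, bound by Sp and KLF family factors) or a CACCC box (CACCC, known from KLF factors), on either strand.
Klk11 (chr7:43774367-43774616, plus strand): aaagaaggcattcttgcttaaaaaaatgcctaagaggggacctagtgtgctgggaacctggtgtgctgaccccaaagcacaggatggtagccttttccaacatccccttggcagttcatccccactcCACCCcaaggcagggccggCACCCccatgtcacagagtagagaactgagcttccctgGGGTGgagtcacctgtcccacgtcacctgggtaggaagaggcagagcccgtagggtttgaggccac
Klk10 (chr7:43780804-43781053, plus strand): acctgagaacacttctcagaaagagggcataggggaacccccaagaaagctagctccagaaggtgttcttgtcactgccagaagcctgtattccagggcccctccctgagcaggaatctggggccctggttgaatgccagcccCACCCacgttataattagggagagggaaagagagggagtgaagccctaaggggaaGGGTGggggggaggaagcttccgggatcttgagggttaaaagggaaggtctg
Klk8 (chr7:43797327-43797576, plus strand): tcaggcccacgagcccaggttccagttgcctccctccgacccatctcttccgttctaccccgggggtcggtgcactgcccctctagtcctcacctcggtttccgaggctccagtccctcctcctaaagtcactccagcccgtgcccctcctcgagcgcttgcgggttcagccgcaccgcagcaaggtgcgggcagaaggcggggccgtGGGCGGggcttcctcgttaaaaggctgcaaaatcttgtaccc
Klk7 (chr7:43811044-43811293, plus strand): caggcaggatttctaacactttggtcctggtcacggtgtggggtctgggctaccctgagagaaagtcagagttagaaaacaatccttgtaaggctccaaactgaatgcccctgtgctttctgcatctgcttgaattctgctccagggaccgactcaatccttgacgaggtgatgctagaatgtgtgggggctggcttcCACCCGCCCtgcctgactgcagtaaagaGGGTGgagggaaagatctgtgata
Klk6 (chr7:43824294-43824543, plus strand): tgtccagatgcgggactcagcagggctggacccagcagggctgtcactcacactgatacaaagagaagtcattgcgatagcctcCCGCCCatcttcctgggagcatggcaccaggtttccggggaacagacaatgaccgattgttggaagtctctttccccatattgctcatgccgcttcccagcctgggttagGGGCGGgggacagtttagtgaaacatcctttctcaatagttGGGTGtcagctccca
Klk5 (chr7:43842019-43842268, plus strand): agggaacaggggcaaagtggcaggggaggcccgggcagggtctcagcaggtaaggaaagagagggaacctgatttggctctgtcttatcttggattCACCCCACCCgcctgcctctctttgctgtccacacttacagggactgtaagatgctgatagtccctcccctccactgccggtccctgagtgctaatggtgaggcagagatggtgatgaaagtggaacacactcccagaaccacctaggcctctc

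A GC box was present in the windows of Klk8, Klk7 and Klk6 and absent as these letters from those of Klk10, Klk11 and Klk5. The window of Klk9, which is not printed, also lacked it, so it was present for 3 of the 5 genes of the run. It was found in 32.7% of all 32851 windows of the same length. A CACCC box was present in every printed window except that of Klk8, and in 52% of all windows. Of the windows not printed, those at the second starts of Klk11 and Klk6 lacked it, and those of Klk9 and Klk13 held it. In Klk7 the 2 motifs overlap by shared bases. Neither TATAAA nor the AP-1 site TGANTCA, each searched on both strands, occurred in any of the windows of the 7 kallikreins. These occurred in 12.4% and 6.75% of all windows. The matches describe the letters only, and the motifs were chosen with the values known.

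The activating proteases had folds below those of Klk6, Klk7, Klk8 and Klk10. St14 (ENSMUSG00000031995), encoding matriptase, had 2916 and 2932 reads, or 151 CPM (145 to 156) in Pp6fl/fl and 169 CPM (163 to 175) in K5.Pp6fl/fl. These intervals did not overlap, and the fold was 1.12 (1.06 to 1.18). Prss8 (ENSMUSG00000030800), encoding prostasin, which is cut and activated by matriptase, had 332 and 336 reads, or 17.2 CPM (15.4 to 19.1) and 19.3 CPM (17.3 to 21.5). Its fold of 1.13 had an interval of 0.965 to 1.32. Kat8, a gene on the other strand, overlaps 6.59% of the exon bases of Prss8 and had 468 and 399 reads. The sum of both genes had a fold of 1.02 (0.924 to 1.13), and it holds more reads of Kat8 than of Prss8.

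Spink5 (ENSMUSG00000055561) had the largest difference of the 10 genes. It had 4383 reads in Pp6fl/fl and 7256 in K5.Pp6fl/fl, or 226 CPM (220 to 233) and 417 CPM (408 to 427). The libraries were clearly apart in counting error, with a fold of 1.84 (1.77 to 1.91), and 1.19% of expressed genes had a higher log2 ratio. In the authors' deposited table Spink5 is listed with a log2 fold change of 0.89 (FDR 1.73e-57), yet neither it nor any other of the 10 genes is marked significant there. Those FDR values rest on 1 library per genotype.

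**Figure D3:**
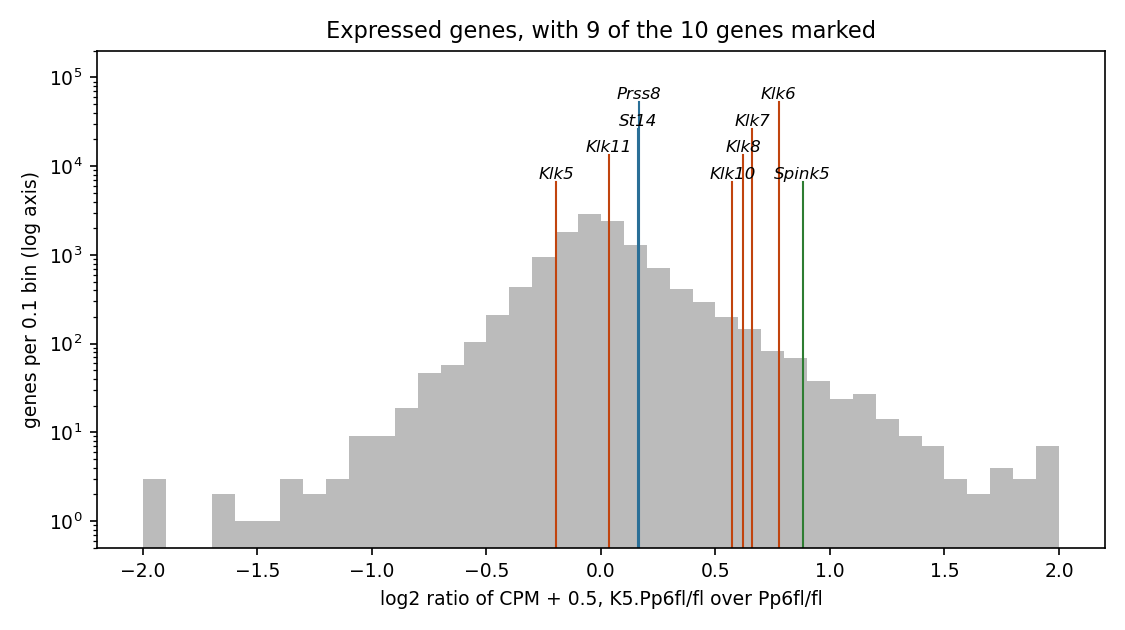
Number of genes (log axis) in bins of 0.1 of the log2 ratio over the 12325 expressed genes, with lines at 9 of the 10 genes, coloured orange for kallikreins, blue for activating proteases and green for the inhibitor. The end bins also hold the genes beyond them. Klk10, Klk8, Klk7, Klk6 and Spink5 lie in the right shoulder between 0.57 and 0.88, and Klk5 lies at -0.20.

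Levels of different genes are compared per length, in the deposited FPKM. In Pp6fl/fl the order was Klk7 (126 FPKM), Klk5 (70.6), Klk6 (69.8), Klk10 (54.6), St14 (52.5), Klk8 (51.8), Spink5 (50.4), Klk11 (28.5), Prss8 (11.1) and Klk13 (1.02). In K5.Pp6fl/fl it was Klk7 (200.2 FPKM), Klk6 (99.7), Spink5 (93.4), Klk8 (82.0), Klk10 (81.8), St14 (59.6), Klk5 (53.0), Klk11 (29.4), Prss8 (12.7) and Klk13 (0.758). Klk7 led both libraries, Spink5 stood in place 7 in the first and place 3 in the second, and Klk5 in places 2 and 7. Several neighbours in these orders, such as Klk5 and Klk6 in Pp6fl/fl or Klk8 and Klk10 in K5.Pp6fl/fl, were so close that their order has no weight without replicates. Of the summed kallikrein FPKM, Klk7 made up 31.3% in Pp6fl/fl and 36.6% in K5.Pp6fl/fl, and Klk5 made up 17.5% and 9.70%. The level, place and share of Klk5 rest on the transcript length used for FPKM. It had 375 reads in Pp6fl/fl, where Klk10, placed after it, had 1130.

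**Figure D4:**
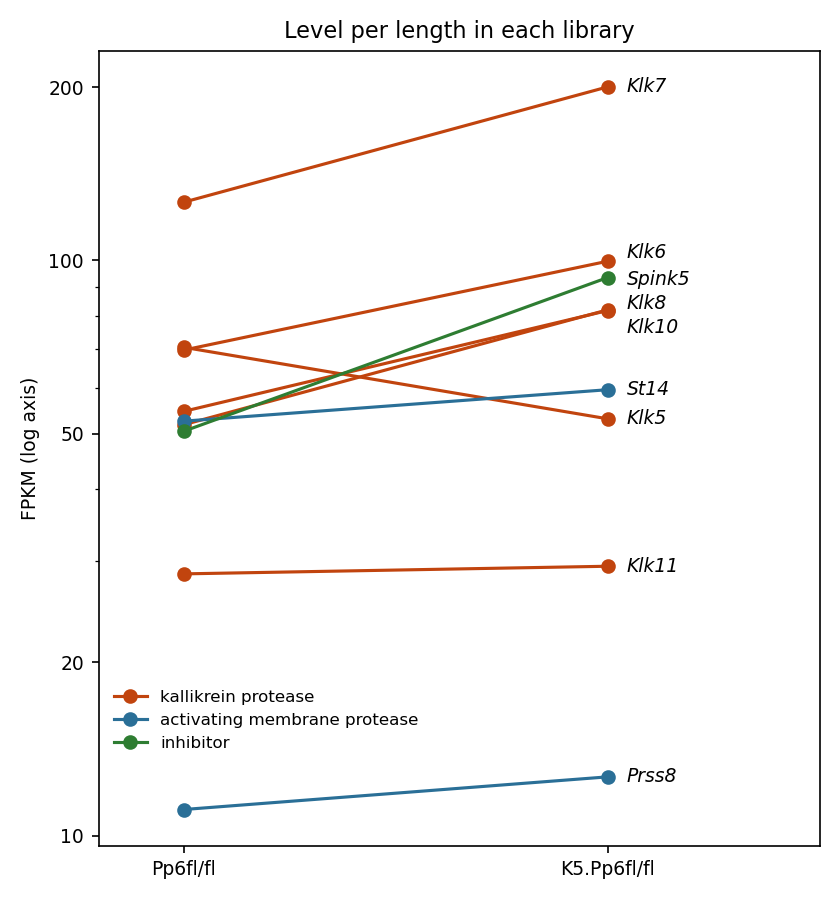
Deposited FPKM on a log axis in the Pp6fl/fl and K5.Pp6fl/fl libraries for 9 of the 10 genes, a line per gene, coloured by role. Klk13, at 1.02 and 0.758 FPKM, is left out. The line of Spink5 crosses those of St14, Klk8, Klk10 and Klk5, and Klk5 is the only line that clearly descends.

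For Klk5 and Klk6 the size of the difference depended on the measure. Klk6 was 1.72-fold higher by CPM and 1.43-fold by FPKM, which is under the 1.5-fold rule, and Klk5 was at 0.87 by CPM and 0.751 by FPKM. The ratio of the CPM fold to the FPKM fold, which gives the change in the effective length used for FPKM, was 1.21 for Klk6 and 1.16 for Klk5. It lay between 0.971 and 0.997 for the other 8 genes. In the GENCODE annotation of GRCm38 Klk5 has 2 transcripts, of 316 and 1239 bases, and Klk6 has 4, of 468 to 1394 bases, while Klk7, Klk10 and Spink5 have 1 each. Klk8, Klk11, Klk13, St14 and Prss8 have 3 to 6. Whether the isoforms of Klk5 and Klk6 differed between the libraries was not tested, since the table has no values per transcript.

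Proteases were then set against Spink5 and the activators within each library, where differences in depth cancel. These are ratios of RNA, and whether LEKTI inhibits each of these proteases was not tested. Spink5 had a higher fold than any protease set against it, so each ratio to Spink5 was bound to be lower in K5.Pp6fl/fl. The reads of the 7 kallikreins together were 7300 in Pp6fl/fl and 9871 in K5.Pp6fl/fl, a CPM fold of 1.51 (1.46 to 1.55). Their ratio to Spink5 reads changed by a factor of 0.817 (exact conditional interval 0.778 to 0.857), and so was lower in K5.Pp6fl/fl. Relative to St14 the same sum was 1.34 times its value in Pp6fl/fl (1.27 to 1.43), and relative to Prss8 also 1.34 times (1.14 to 1.56). The ratio of St14 and Prss8 together to Spink5 changed by a factor of 0.608 (0.571 to 0.647), and by FPKM it was 1.26 in Pp6fl/fl and 0.774 in K5.Pp6fl/fl. By FPKM the kallikrein sum was 7.98 times Spink5 in Pp6fl/fl and 5.86 times in K5.Pp6fl/fl.

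Each kallikrein by itself had a lower ratio to Spink5 in K5.Pp6fl/fl, and for 6 of the 7 the interval lay below 1. Spink5 had a higher fold (1.84) than each of them, so the direction of these ratios follows from the choice of denominator. An interval below 1 shows only that the fold of that kallikrein was below that of Spink5 in counting error. The factor was 0.858 (0.811 to 0.907) for Klk7, 0.839 (0.751 to 0.938) for Klk8 and 0.81 (0.743 to 0.883) for Klk10. It was 0.557 (0.485 to 0.639) for Klk11, 0.472 (0.402 to 0.554) for Klk5 and 0.391 (0.165 to 0.886) for Klk13. Klk6 was the exception, with a factor of 0.934 and an interval of 0.847 to 1.03, though by FPKM its factor was 0.771. The 7 ratios share the same Spink5 reads and are not independent of each other. The folds of Klk5, Klk11 and Klk13 had intervals that included 1, so their factors mostly restate the higher level of Spink5. By FPKM, Klk5 stood at 1.40 times Spink5 in Pp6fl/fl and 0.568 times in K5.Pp6fl/fl, so by this measure the higher of the 2 changed between the libraries. That order depends on the effective length used for Klk5, whose annotated transcripts have 316 and 1239 bases. The CPM fold of Klk5 itself had an interval that included 1 (0.744 to 1.02).

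**Figure D5:**
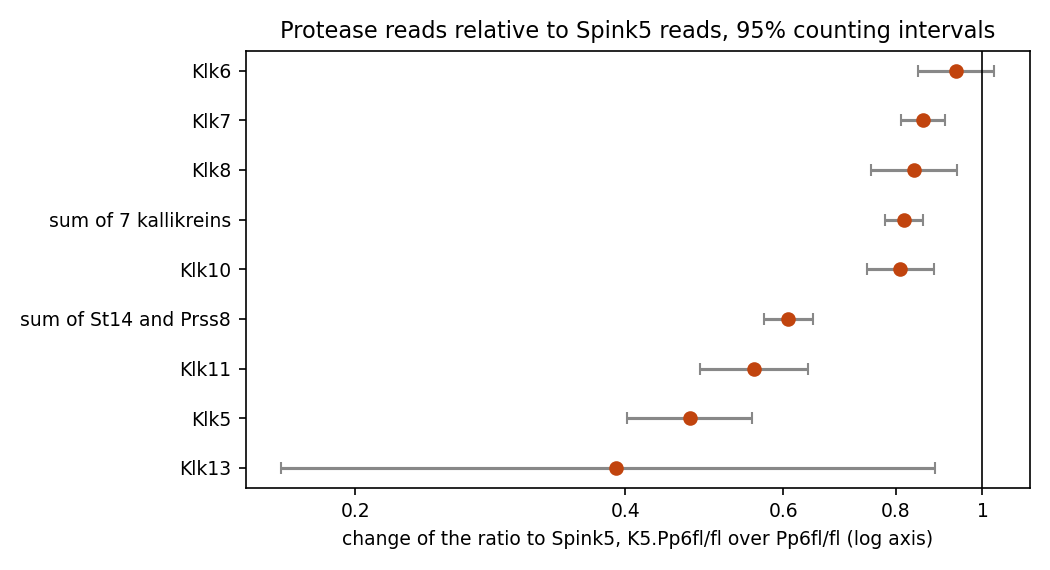
Factor by which the ratio of protease reads to Spink5 reads changed, K5.Pp6fl/fl over Pp6fl/fl, on a log axis, for each kallikrein, their sum and the sum of St14 and Prss8. Bars are 95% exact conditional intervals for counting error. All points lie below 1, from 0.391 for Klk13 to 0.934 for Klk6, and only the bar of Klk6 includes 1. That all points lie below 1 follows from the fold of Spink5, which was higher than that of any numerator.

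Other activators and inhibitors of epidermal proteases were read from lists that do not overlap the 10 genes. Of 15 further activators, 8 were expressed, 5 with an interval above 1 (16.6% of all expressed genes) and none below (17.4%), and their median log2 ratio was 0.40. Tmprss11f, a membrane serine protease of the same superfamily as matriptase, was the only one past the 2-fold rule, from 6 reads to 27, or 0.310 to 1.55 CPM, a fold of 5.01 (2.03 to 14.8). Of 16 further inhibitors 7 were expressed, 4 with an interval above 1 and 1 below, against the same 16.6% and 17.4%, and their median was 0.16. The 2 with the highest mean CPM were Spint2 (1.12-fold, 1.05 to 1.19) and Spint1 (1.2-fold, 1.07 to 1.35), which encode the Kunitz inhibitors that block matriptase and prostasin. Chosen after their values were seen, Cst6, encoding the cysteine protease inhibitor cystatin M/E, was 1.72-fold higher (1.53 to 1.94), Slpi, a secreted inhibitor of leukocyte proteases, 1.57-fold (1.31 to 1.88), and Serpinb12 was at 0.665 (0.494 to 0.888). Among further genes of the Spink family, Spink6 and Spink10 had 0 reads in both libraries, and Spink2 and Spink12 had 3 and 1 reads each.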

How the data were processed

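RNA of 2 cultures, 1 per genotype, was sequenced after oligo(dT) capture with a TruSeq kit, per the labels' protocols. The estimated counts the authors deposited carry a constant factor per library, found here as the most frequent value above 0 (0.945742 and 1.05737). After division by it, 97.3% and 97.4% of values under 100 reads were whole within 0.01 reads, and all were rounded. The FPKM values, log2 fold changes, p-values and FDR were deposited by the authors. Per the submitters' processing notes RSEM, edgeR and mm8 were used, with no version or role stated. The sources used here name no aligner.

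Gene IDs were matched to symbols (47219 of 47719). Genes without a symbol held 0.105% and 0.106% of reads. CPM used TMM factors of edgeR 4.0.16 (R 4.3.3). The design took counts as library reads, with any constant factor of a column undone, and the factors themselves were found from the data. Folds have exact conditional binomial (Clopper-Pearson) intervals at 95%, single counts exact Poisson intervals, and ratios between genes conditional odds ratios (scipy 1.17.1), all for counting error only, since reads are not independent molecules. Call rules (2-fold, 1.5-fold, interval only) need 1 CPM in the higher library and an interval that excludes 1. By FPKM the fold rules required no interval. The script was tested on simulated counts without spread between cultures. That test had changes larger than those of the 10 genes and made calls by the 2-fold rule only. Named genes were the 10 genes, Ppp6c, other kallikreins and, per further list, up to 4 genes past the 2-fold rule or else the 2 most abundant. The genes and lists were chosen with earlier results of these data known. Alternatives were DESeq2 1.42.0 size factors, library totals, pseudocounts, floors, FPKM and a sum without Klk7.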

Additional observations from a re-analysis of the deposited data

How the results depend on the processing

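No paired analysis was possible because each genotype has 1 library. Across 156 recomputed values, 137 stayed within their counting interval or, for counts, within 1.5 times the value reported, and 19 moved beyond it. Direction was judged only for medians and for ratios whose interval excluded 1, and none of those reversed. Counts of genes have no direction, and a change of pseudocount cannot reverse a log2 ratio. DESeq2 size factors and library totals in place of TMM moved none of the 24 values recomputed under each. The TMM factors were 0.999 and 1.001 and the DESeq2 sizes were nearly the same, so these settings could hardly move a value. Of 52 recomputed log2 ratios of the 10 genes 1 moved, that of Klk6, from 0.78 to 0.51 by FPKM. The kallikrein median moved to 0.51 by FPKM, where Klk13 also passed the floor of 1 FPKM. By FPKM the kallikrein sum changed by 0.734 relative to Spink5 and by 1.20 relative to St14, and Klk6 by 0.771 relative to Spink5. Without Klk7 the sum changed by 0.77 relative to Spink5. FPKM give no counting interval, so the interval rule has no FPKM value.

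The background counts moved more. Genes at least 2-fold higher and lower numbered 100 and 24. They were 173 and 57 with a pseudocount of 0.1 CPM, 34 and 5 with 2 CPM, 232 and 140 by FPKM, and 49 and 4 at a floor of 5 CPM. Genes at least 1.5-fold higher and lower numbered 428 and 155. They were 223 and 39 with a pseudocount of 2 CPM, 224 and 55 at a floor of 5 CPM, and the lower count was 325 by FPKM. The FPKM counts, here and for the 10 genes, did not require an interval that excludes 1. They are therefore not like for like with the other counts. The numbers of the 10 genes past the 1.5-fold rule stayed at 4, except 3 by FPKM. Sums with overlapping genes, for Klk8 and Prss8, were chosen after seeing the data. Depth limits Klk13 most, and no interval covers the spread between cultures.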

Other observations

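Genes on which these proteases act, and other enzymes of the stratum corneum, were also measured. Over all expressed genes, 16.6% had an interval above 1 and 17.4% one below 1. Of 14 desmosome and corneodesmosome genes, all expressed, 11 had an interval above 1 and 1 below, against those 16.6% and 17.4%, with a median log2 ratio of 0.13. Among those 11 were folds close to 1, in genes with narrow counting intervals. Dsp, encoding the plaque protein desmoplakin, and Pkp1, encoding plakophilin, were at 1.02 (1.01 to 1.03) and 1.04 (1.02 to 1.05). Only Cdsn passed the 1.5-fold rule, named here after its value was seen. It encodes corneodesmosin, the adhesion protein cut by KLK7, and its level was 211 CPM against 321 CPM, 1.52-fold higher (1.46 to 1.59). Of 9 expressed further targets of 10 listed, 7 had an interval above 1 (16.6% of all expressed genes) and 0 below (17.4%). Their median log2 ratio was 0.68, against 0.60 for the 6 expressed kallikreins. That median is the value of Scnn1b, which had only 22 and 37 reads. Past the 1.5-fold rule were 6 of the 9, against 3.47% of all expressed genes. Among these 6, Scnn1b, Scnn1g (19 and 41 reads), Flg (49 and 74) and Flg2 (10 and 35) rested on few reads. Flg2, encoding a relative of filaggrin, was at 0.517 and 2.01 CPM, past the 2-fold rule, a fold of 3.90 (1.89 to 8.82). Chosen after their values were seen, the tight junction gene Cldn1 was 1.73-fold higher (1.69 to 1.78), Epcam, whose product is cut by matriptase, 1.84-fold (1.72 to 1.98), and F2rl1, encoding the protease-activated receptor PAR2, was at 0.97 (0.907 to 1.04).

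Of 12 expressed other proteases of the stratum corneum, 9 had an interval above 1 and 1 below, against 16.6% and 17.4% of all expressed genes, with a median of 0.35. Of these 12, 4 passed the 1.5-fold rule, against 3.47% of all expressed genes. Htra1 and Ctsd, encoding a secreted serine protease and cathepsin D, were at 1.06 (1.04 to 1.09) and 1.17 (1.14 to 1.2). Named after their values were seen, Asprv1, encoding the filaggrin-processing protease SASPase, was 1.73-fold higher (1.64 to 1.83), and Casp14, encoding a caspase of cornification, 1.66-fold (1.34 to 2.06). Of 9 measured genes of lamellar granules, the vesicles that carry kallikreins and LEKTI out of the cell, and of corneodesmosome stability, 6 had an interval above 1 and 0 below, again against 16.6% and 17.4%. Their median log2 ratio was 0.25. Abca12, the lipid transporter of these granules, was 1.35-fold higher (1.3 to 1.41), and the clathrin gene Cltc 1.13-fold (1.1 to 1.17). These comparisons come from the same 2 libraries and have no replicate check.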
